A study of Sus scrofa with 4 samples.

Results

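The complement system was examined in sorted pig lung cells through 32 genes that encode its components, receptors and regulators. The genes were chosen by name, and 25 of the 32 had a row among the 29263 genes of the count tables, 22 under their symbol and 3 (CFB, CFI and C3AR1) through their Ensembl identifier. The other 7 (C1R, C1S, C8G, CR2, CD46, CD55 and CD59) had no row that a name or identifier tied to them and were not analysed here, so none of the 3 membrane-bound inhibitors of the list was measured.

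All libraries came from lung of pigs with the genotype LGR5-H2B-GFP knock-in, a green fluorescent histone that reports transcription of LGR5, an R-spondin receptor of the Wnt pathway. Dissociated cells were sorted on fluorescence into GFP-HI (bright) and GFP-NEG (no fluorescence), with 2 biological replicates of each and no treatment. The protocol covers adult and fetal animals together, so the labels leave the stage of these libraries unstated, although the name of the deposited comparison table says adult pig. GFP-NEG is a mixture of whatever lung cells lack the reporter, and in bulk RNA a smaller number of cells of a type cannot be told apart from less RNA in each cell.

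Complement is a cascade of plasma and tissue proteins that marks microbes and damaged cells for removal. The classical pathway starts when C1q binds a target, the lectin pathway when sugar-binding proteins carry MASP proteases to one, and the alternative pathway amplifies by itself; all converge on cleavage of C3. The fragments C3a and C5a call in leukocytes through their receptors, C5b to C9 assemble a membrane pore, and a set of inhibitors restrains each step. The liver makes most circulating complement, while macrophages make C1q and stromal cells of many tissues make C3 and its regulators.

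The sort and the libraries set the frame for every value. LGR5 was at 146 and 152 CPM in GFP-HI and at 1.55 and 0.767 CPM in GFP-NEG, where CPM is the usual depth-scaled count, here with TMM factors. The GFP-HI libraries held 24200550 and 24689986 counts and the GFP-NEG libraries 6292253 and 7045652, so that 3 counts, the limit that a count of 0 allows, correspond to 0.136 and 0.149 CPM in GFP-HI and to 0.466 and 0.329 CPM in GFP-NEG. The shallower GFP-NEG libraries had at least 1 count for more genes (24120 and 25985, against 18752 and 18392). The 10 fibroblast markers summed to 87444 and 82323 CPM in GFP-HI and to 26332 and 9428 CPM in GFP-NEG, with 7 of 10 higher in GFP-HI past the threshold. Most of the sum in each library came from COL1A1, COL1A2 and COL3A1, which did not pass it. PTPRC, the leukocyte antigen CD45, fell by 3.51 on the log2 scale in GFP-HI. The 8 lung epithelial markers had counts in every library, and 3 of them were lower in GFP-HI past the threshold and none higher. Their sum was 263 and 352 CPM in GFP-HI and 705 and 199 CPM in GFP-NEG. It was thus lower in GFP-HI within replicate 1 and higher within replicate 2.

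Complement genes went both ways. In GFP-HI, 5 genes rose: C3, C4A, MASP1, SERPING1 and CFI. Another 6 fell: C1QB, CFP, C3AR1, C5AR1, CD93 and C4BPA, among them all 3 receptor genes with a row. Of the 25 genes, 22 passed the filter on low counts and were tested, and 11 of them did not pass the threshold, an adjusted p under 0.05 in edgeR's quasi-likelihood test. Against all 19682 genes tested, where 8.35% were higher and 27.6% lower, the complement genes had 22.7% higher and 27.3% lower. Their median log2 fold change was -0.73, beside -0.25 for all genes tested, and the order of these medians turned in 4 alternatives: with no filter on low counts (-0.69 against -1.21), under DESeq2 (-0.73 against -1.30), without GFP-HI replicate 2 (-0.22 against -0.47) and without GFP-NEG replicate 1 (0.48 against -0.43). The complement median covered only genes tested in the main fit, whereas the median of all genes covered every gene with a value in that alternative. That was 26737 genes under no filter and under DESeq2, beside 19682 in the main fit, so the sets were unlike. Both GFP-HI libraries lay above both GFP-NEG libraries for 7 of the 22 (27.7% of all genes tested) and below them for 7 (42%).

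**Figure D1:**
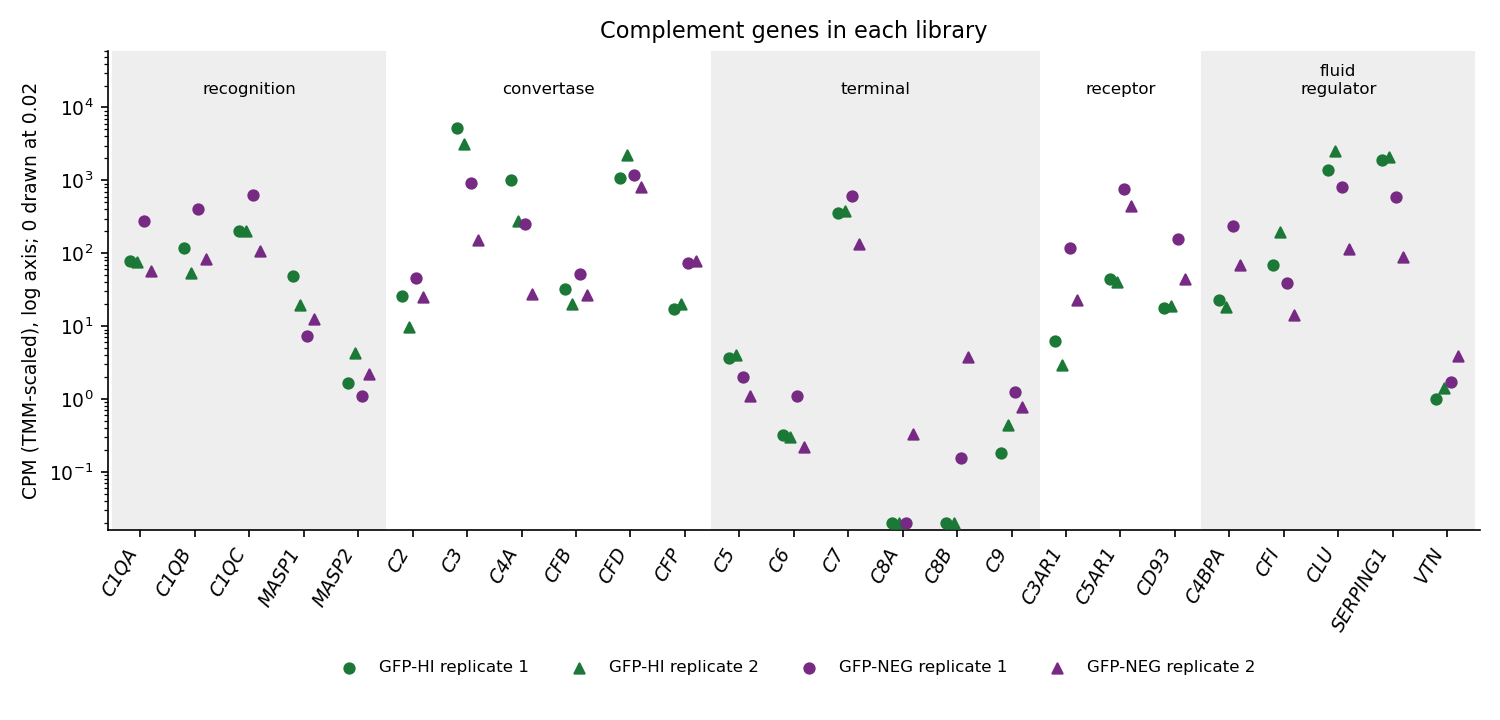
CPM (log axis) of the 25 complement genes with a row, grouped by role; green points are the 2 GFP-HI libraries and purple points the 2 GFP-NEG libraries, circles replicate 1 and triangles replicate 2, and a count of 0 is drawn at 0.02. The 3 receptor genes lie lower in both GFP-HI libraries, while C3, C4A, CFI, CLU and SERPING1 lie higher in both.

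The common step of the pathways, the cleavage of C3, was represented by genes that moved in opposite directions. C3 was at 5194 and 3135 CPM in GFP-HI and at 912 and 153 CPM in GFP-NEG. Both GFP-HI libraries were above both GFP-NEG libraries, and the GFP-NEG libraries themselves were far apart. The fitted log2 difference was 2.97 ± 1.11 (SE; adjusted p 0.024, edgeR). C3 alone took 0.474% and 0.256% of all counts in GFP-HI, against 0.0933% and 0.0199% in GFP-NEG.

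C4A, listed in RefSeq (Sscrofa11.1) also under the name C4, encodes the component that classical and lectin proteases cut first. It was at 1021 and 276 CPM in GFP-HI and at 256 and 28.1 CPM in GFP-NEG. The groups did not overlap, but the lower GFP-HI library stood only slightly above the higher GFP-NEG library. The fitted log2 difference was 2.19 ± 0.73 (SE; adjusted p 0.0099, edgeR).

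C2 and factor B (CFB) supply the catalytic subunits of the classical and alternative C3 convertases, and RefSeq places their genes next to each other on chromosome 7. Neither passed the threshold. C2 was at 25.9 and 9.77 CPM in GFP-HI and at 45.3 and 25.4 CPM in GFP-NEG, and CFB was at 32.0 and 20.0 CPM against 51.4 and 26.7 CPM. The groups overlapped for both genes. Their log2 fold changes were -0.99 (adjusted p of 0.14, edgeR) and -0.59 (adjusted p of 0.41), and the 95% interval for CFB ran from -1.60 to 0.43. Under scaling by library size alone, C2 passed as lower (adjusted p of 0.044, with a range of 0.044 to 0.72 over the 12 alternatives).

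CFD, or adipsin, the protease that activates factor B and a known product of adipocytes, was abundant in both fractions. It was at 1093 and 2214 CPM in GFP-HI and at 1172 and 799 CPM in GFP-NEG. The groups overlapped, because GFP-HI replicate 1 lay below GFP-NEG replicate 1. Its log2 fold change was 0.75 with a 95% interval of -1.03 to 2.52, which holds changes in either direction.

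Properdin (CFP), the stabiliser of the alternative convertase that leukocytes store and release, fell in GFP-HI. It was at 17.0 and 20.1 CPM in GFP-HI and at 73.1 and 79.6 CPM in GFP-NEG. The replicates of each group were close to each other and the groups were well apart, and the fitted log2 difference was -2.04 ± 0.53 (SE; adjusted p 6.6e-04, edgeR). The differences between libraries numbered 1 and between those numbered 2, which are not shown to share an animal, were -2.11 and -1.98.

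Recognition genes gave 1 call in each direction, with C1QB lower and MASP1 higher. C1QA, C1QB and C1QC encode the chains that assemble together into C1q, and RefSeq lists them side by side on chromosome 6. C1QA was at 77.7 and 76.0 CPM in GFP-HI and at 281 and 57.7 CPM in GFP-NEG. C1QB was at 117 and 54.1 CPM against 400.0 and 84.5 CPM, and C1QC was at 201 and 200.2 CPM against 629 and 108 CPM. For all 3 chains the GFP-NEG libraries enclosed at least 1 GFP-HI library, so that the groups overlapped.

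Only C1QB of the 3 passed the threshold, with a fitted log2 difference of -1.5 ± 0.61 (SE; adjusted p 0.039, edgeR). C1QA was at -1.14 (adjusted p of 0.11) and C1QC at -0.88 (adjusted p of 0.32). C1QA passed as lower under upper-quartile scaling and under library size alone (0.041 and 0.030, within 0.030 to 0.67 over the 12 alternatives). The C1QB call was lost in 7 of the 12 alternatives, with adjusted p-values from 0.0093 to 0.96. Without GFP-NEG replicate 1 all 3 values turned positive, at 0.47, 0.065 and 0.95. The counts of C1QA per count of C1QC were 0.387 and 0.380 in GFP-HI, both below the 0.447 and 0.535 in GFP-NEG. The counts of C1QB per count of C1QC were 0.580, 0.636 and 0.784 in 3 libraries and 0.270 in GFP-HI replicate 2, the library that stood apart.

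Macrophages make C1q in lung, and the summed level of their markers was lower in GFP-HI within both replicate numbers. The C1q genes followed this sum only in part, and so did single markers. Within replicate 2, C1QA and C1QC were higher in GFP-HI (log2 differences of 0.40 and 0.89) and C1QB was lower (-0.64). CD68 (0.11), MSR1 (0.71), MARCO (1.10) and LYZ (0.45) were higher there too. CD163 (-0.04), FABP4 (-0.14), MRC1 (-0.68), AIF1 (-1.61), CD14 (-3.96) and CSF1R (-4.28) were lower. CSF1R, AIF1 and CD14 were the largest terms of the GFP-NEG replicate 2 sum (330, 140 and 103 CPM). None of the 10 macrophage and monocyte markers was above 0 in log2 fold change, 5 of 10 fell past the threshold, and their summed level was 204 and 225 CPM in GFP-HI and 958 and 718 CPM in GFP-NEG; none was at 0 in any library. CD163, a scavenger receptor of tissue macrophages, fell by 1.28 on the log2 scale, but passed the threshold in only 5 of the 12 alternatives (edgeR and DESeq2 adjusted p-values of 0.0078 to 0.96) and was at -0.065 without GFP-NEG replicate 1. Per count of CD163 there were 7.0 and 6.30 counts of C1QC in GFP-HI, compared with 5.49 and 3.29 in GFP-NEG, a pair chosen after the values were seen. The part of macrophage RNA in the C1q values was not tested.

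MASP1, a protease carried by mannose-binding lectin and ficolins, rose in GFP-HI. It was at 49.5 and 19.3 CPM in GFP-HI and at 7.45 and 12.5 CPM in GFP-NEG. The groups did not overlap, but the difference was 2.73 within replicate 1 and 0.63 within replicate 2. The fitted log2 difference was 1.78 ± 0.56 (SE; adjusted p 0.0064, edgeR). MASP2, the partner protease that cuts C4 and C2, was low throughout, at 1.68 and 4.26 CPM in GFP-HI and at 1.09 and 2.19 CPM in GFP-NEG, and did not pass the threshold (log2 fold change 0.84, adjusted p of 0.61).

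The terminal components, which build the membrane attack pore, gave no call. C7 was the one with substantial counts, at 360.2 and 383 CPM in GFP-HI and at 615 and 135 CPM in GFP-NEG. The GFP-HI libraries were nearly equal and lay between the GFP-NEG libraries. The log2 fold change was -0.01 with a 95% interval of -1.37 to 1.34, the difference was -0.77 within replicate 1 and 1.5 within replicate 2, and the value was 1.51 without GFP-NEG replicate 1 and -0.77 without GFP-NEG replicate 2. Per count of PDGFRA, a fibroblast marker taken as reference after the values were seen, there were 0.438 and 0.680 counts of C7 in GFP-HI, compared with 6.33 and 5.97 in GFP-NEG, whereas the same ratio for C3 was 6.32 and 5.57 in GFP-HI, against 9.38 and 6.76 in GFP-NEG.

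C5, the source of the chemoattractant C5a and of the first pore subunit, was low at 3.72 and 4.02 CPM in GFP-HI and at 2.02 and 1.10 CPM in GFP-NEG. Its groups were apart, but with 13 and 10 counts in GFP-NEG the log2 fold change of 1.32 ± 1.12 (SE) did not pass the threshold (adjusted p of 0.38, edgeR). C9, the pore-forming subunit, had 4 and 9 counts in the GFP-HI libraries, against 8 and 7 in GFP-NEG, and its log2 difference was -1.65 (adjusted p of 0.30).

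C6, C8A and C8B did not pass the filter on low counts. C6 had 7 and 6 counts in the GFP-HI libraries, against 7 and 2 in GFP-NEG. C8A had 3 counts, all in GFP-NEG replicate 2, and C8B had 0 counts in both GFP-HI libraries, while its GFP-NEG counts were 1 (replicate 1) and 34 (replicate 2). The mean of C8B in GFP-NEG, 1.94 CPM, was at least 13.1-fold higher than the floor of 3 counts in a GFP-HI library, and it rested on GFP-NEG replicate 2. Of 6 hepatocyte markers with a row, ALB, APOB, TTR and SERPINA1 were at 0 in at least 1 library. The summed level of the 6 was 25.2 and 18.7 CPM in GFP-HI and 111 and 36.5 CPM in GFP-NEG. Most of it was APOA1, at 22.5 and 15.3 CPM against 104 and 25.5 CPM. ALB, APOB, TTR, SERPINA1 and FGB had 1, 8, 7, 3 and 25 counts in GFP-NEG replicate 1. In GFP-NEG replicate 2 they had 16, 25, 26, 7 and 26. The source of the C8B counts was not tested.

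All 3 receptor genes fell. C5AR1, the C5a receptor of neutrophils and macrophages, was at 43.9 and 39.8 CPM in GFP-HI and at 756 and 450.0 CPM in GFP-NEG. Every GFP-NEG value was more than 10 times the GFP-HI values. The fitted log2 difference was -3.85 ± 0.75 (SE; adjusted p 1.0e-05, edgeR). C3AR1, the C3a receptor of myeloid cells, was at 6.21 and 2.97 CPM in GFP-HI and at 118 and 22.8 CPM in GFP-NEG. Its GFP-NEG libraries differed widely but both lay above GFP-HI, and the fitted log2 difference was -3.93 ± 0.58 (SE; adjusted p 2.3e-09, edgeR).

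CD93, an endothelial and myeloid surface protein once described as a C1q receptor, was at 18.0 and 19.0 CPM in GFP-HI and at 157 and 44.2 CPM in GFP-NEG. The groups were apart, and the fitted log2 difference was -2.44 ± 0.54 (SE; adjusted p 1.1e-04, edgeR). Markers of neutrophils and endothelial cells, classes known for these receptors, mostly fell too. Of the 5 neutrophil markers with a row, 4 fell, and their sum was 185 and 167 CPM in GFP-HI, against 1908 and 797 CPM in GFP-NEG. Of 8 endothelial markers, 7 fell, with sums of 209 and 209 CPM against 1396 and 567 CPM. No gene of the neutrophil and endothelial lists was at 0 in any library, and the part of these cells in the receptor values was not tested. The B cell and the T and NK cell lists fell as well, with 5 of 6 and 6 of 6 markers lower past the threshold. Per count of CDH5, an endothelial cadherin, there were 0.616 and 0.970 counts of CD93 in GFP-HI, compared with 0.682 and 0.637 in GFP-NEG. Per count of CSF3R, a neutrophil marker, there were 0.624 and 2.03 counts of C5AR1 in GFP-HI, compared with 0.638 and 0.699 in GFP-NEG. These pairs too were chosen after the values were seen.

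**Figure D2:**
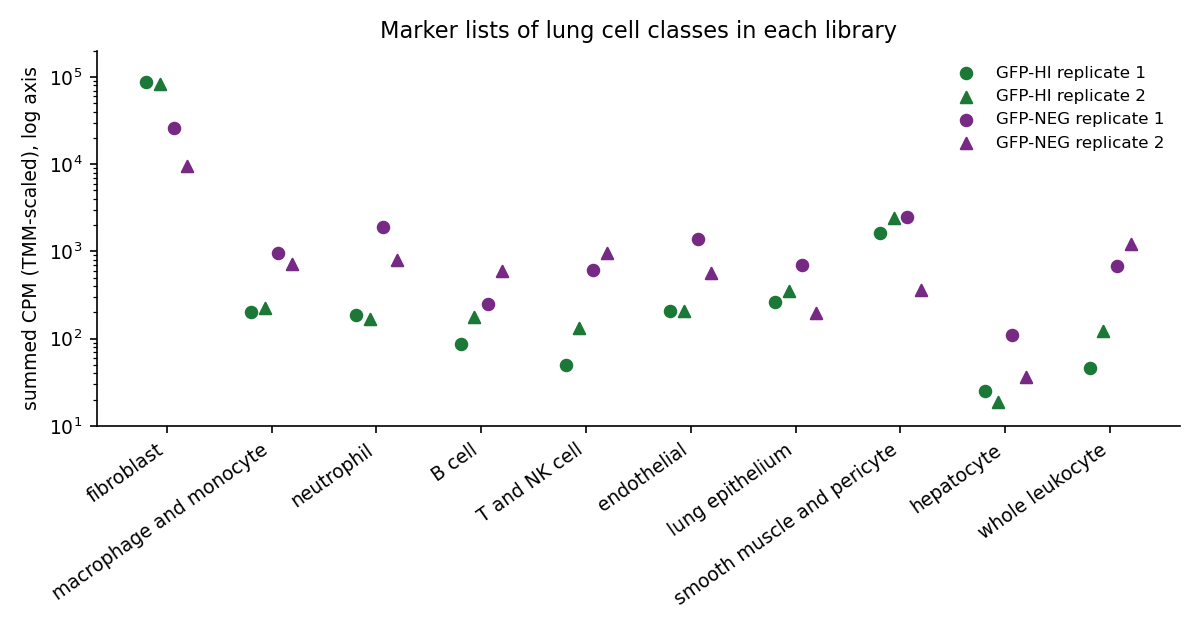
Summed CPM (log axis) of each marker list in the 4 libraries; green is GFP-HI and purple GFP-NEG, circles replicate 1 and triangles replicate 2. The fibroblast sum is 87444 and 82323 CPM in GFP-HI against 26332 and 9428 CPM in GFP-NEG, and the macrophage, neutrophil and endothelial sums lie lower in both GFP-HI libraries.

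Of the 5 fluid-phase regulators, SERPING1 and CFI rose, C4BPA fell, and CLU and VTN did not pass the threshold. SERPING1, the C1 inhibitor that blocks C1r, C1s and the MASP proteases, was at 1878 and 2115 CPM in GFP-HI and at 592 and 89.8 CPM in GFP-NEG. The GFP-HI libraries were close to each other and the groups were apart. The fitted log2 difference was 2.55 ± 0.93 (SE; adjusted p 0.020, edgeR). CFI, factor I, the protease that inactivates C3b and C4b, was at 69.6 and 196 CPM in GFP-HI and at 39.4 and 14.1 CPM in GFP-NEG. Its fitted log2 difference was 2.31 ± 0.56 (SE; adjusted p 2.6e-04, edgeR), and the difference was 0.82 within replicate 1 and 3.79 within replicate 2. Per count of PDGFRA there were 2.28 and 3.76 counts of SERPING1 in GFP-HI, compared with 6.09 and 3.96 in GFP-NEG. The 10 fibroblast markers, none at 0 in any library, moved in the direction of C3, C4A, SERPING1 and CFI, and their part in these values was not tested.

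Clusterin (CLU), a secreted chaperone that also holds back pore assembly, was at 1408 and 2557 CPM in GFP-HI and at 799 and 115 CPM in GFP-NEG. The groups were apart, yet the log2 fold change of 2.12 ± 0.92 (SE) missed the threshold (adjusted p of 0.059, edgeR). It passed under DESeq2 (adjusted p of 0.016), with adjusted p-values of 0.0066 to 0.60 over the 12 alternatives. Vitronectin (VTN), a plasma and matrix protein that also blocks the pore, had 22 and 29 counts in the GFP-HI libraries, against 11 and 36 in GFP-NEG, and its log2 fold change of -1.22 did not pass (adjusted p of 0.45).

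C4BPA, the chain of the C4b-binding protein that serves factor I as a cofactor, was at 22.5 and 18.4 CPM in GFP-HI and at 238 and 68.7 CPM in GFP-NEG. The groups were apart, and the fitted log2 difference was -2.90 ± 0.58 (SE; adjusted p 1.5e-05, edgeR). RefSeq lists 2 genes under this symbol next to each other, and how the authors' counting divided reads between them is not given in the sources used here. C4BPB, the other chain of the same protein, had 5 and 27 counts in the GFP-HI libraries, against 34 and 64 in GFP-NEG, and fell as well (log2 fold change -2.97, adjusted p of 0.023), with the call lost without GFP-HI replicate 1 (0.17) or GFP-NEG replicate 2 (0.13), 0.011 to 0.17 over the 12 alternatives, and a value of -4.61 without GFP-HI replicate 2.

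**Figure D3:**
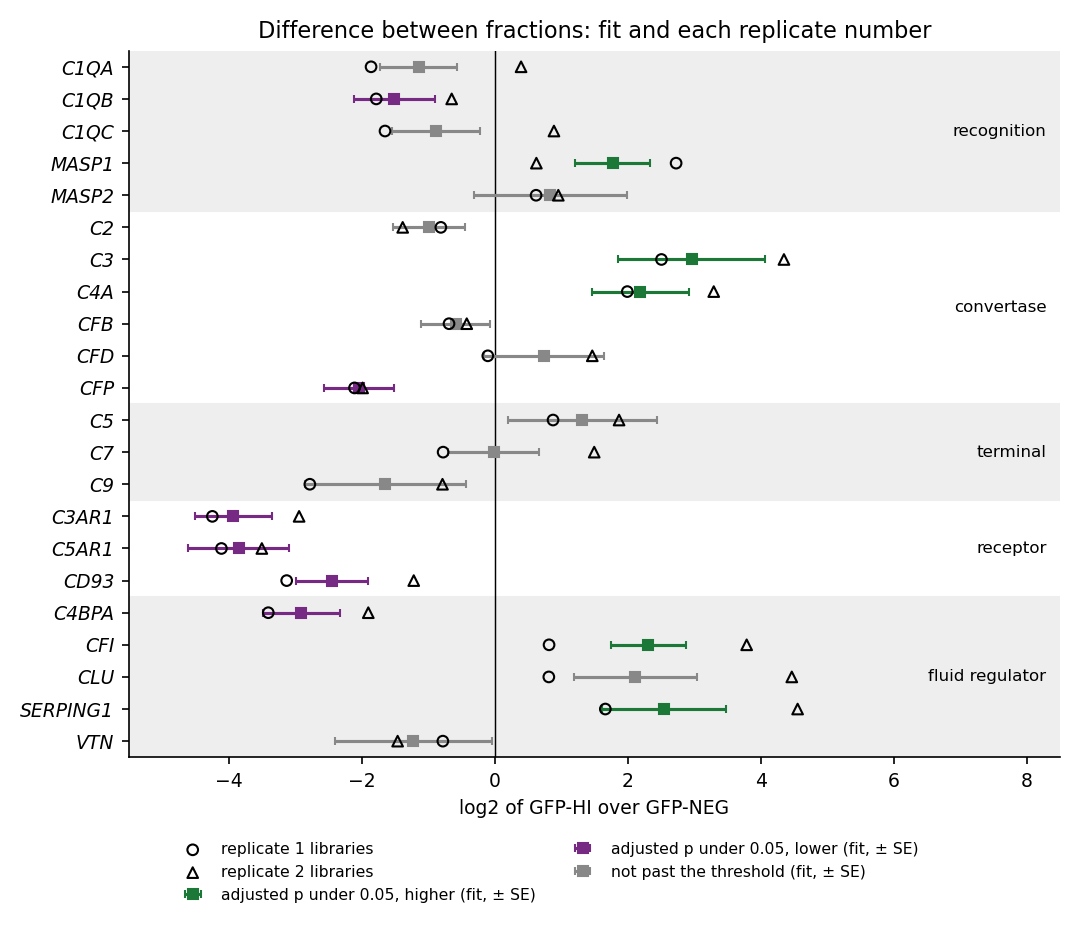
Log2 of GFP-HI over GFP-NEG for the 22 tested complement genes by role; squares are the edgeR fit with its SE (green higher, purple lower, grey not past the threshold), and open circles and triangles are the differences between the libraries of replicate 1 and of replicate 2. C1QA, C1QC, CFD and C7 have the 2 replicate numbers on opposite sides of 0, and C3, CFI, CLU and SERPING1 have replicate 2 farther from 0 than replicate 1.

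The distance between the GFP-NEG libraries ran through these genes. GFP-NEG replicate 1 was above GFP-NEG replicate 2 for 18 of the 22 tested complement genes (81.8%), whereas this held for 44.8% of all genes tested, and the median ratio between the libraries was 3.13 for the complement genes and 1.05 for the 15350 genes with at least 3 counts in every library. The GFP-HI libraries showed no such order, with replicate 1 above replicate 2 for 11 of 22. The fibroblast, macrophage, neutrophil and endothelial sums were all higher in GFP-NEG replicate 1, and the T and NK cell sum (614 and 962 CPM) and PTPRC (687 and 1214 CPM) were higher in GFP-NEG replicate 2. The direction of the difference was the same within both replicate numbers for 18 of the 22 complement genes, beside 75.8% of those 15350 genes.

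The calls that rose depended on which GFP-NEG library was used. So did the number of higher genes over all genes tested, which was lowest among the alternatives without GFP-NEG replicate 2. Losing such calls there was therefore not particular to the complement genes. Without GFP-NEG replicate 2, the lower of the GFP-NEG libraries for all of them but MASP1, none of C3, C4A, MASP1, SERPING1 and CFI passed the threshold, with log2 fold changes of 2.15, 1.30, 2.17, 1.72 and 1.71 (edgeR adjusted p-values of 0.32, 0.53, 0.064, 0.43 and 0.21). Without GFP-NEG replicate 1 they were 4.81, 4.58, 1.51, 4.53 and 3.28, with MASP1 not past the threshold (adjusted p of 0.11). C3 missed narrowly without either GFP-HI library (0.055 without replicate 1 and 0.056 without replicate 2), and C4A (0.38) and MASP1 (0.23) were lost without GFP-HI replicate 1, where C4A was at 1.04 and MASP1 at 1.11. SERPING1 (0.092) and CFI (0.12) were lost without GFP-HI replicate 2, where CFI was at 1.44. MASP1 was also lost under scaling by library size alone (0.060). Over the 12 alternatives the adjusted p-values ran from 3.1e-04 to 0.32 for C3, from 8.0e-04 to 0.53 for C4A, from 0.0075 to 0.23 for MASP1, from 0.0021 to 0.43 for SERPING1 and from 2.6e-04 to 0.21 for CFI.

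The falls of C3AR1, C5AR1 and C4BPA passed the threshold in all 12 alternatives, although their size moved. With single libraries left out, C5AR1 ranged from -4.21 to -3.38. Without GFP-NEG replicate 1, C3AR1 was at -2.26 and C4BPA at -1.70. CD93 was at -1.20 without GFP-NEG replicate 1 and was not past the threshold there (adjusted p of 0.17) nor without GFP-HI replicate 1 or replicate 2 (0.051 and 0.051; 1.0e-05 to 0.17 over the 12). CFP lost its call without GFP-HI replicate 1 (adjusted p of 0.066, with 7.4e-05 to 0.066 over the 12), at a log2 fold change of -1.78.

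**Figure D4:**
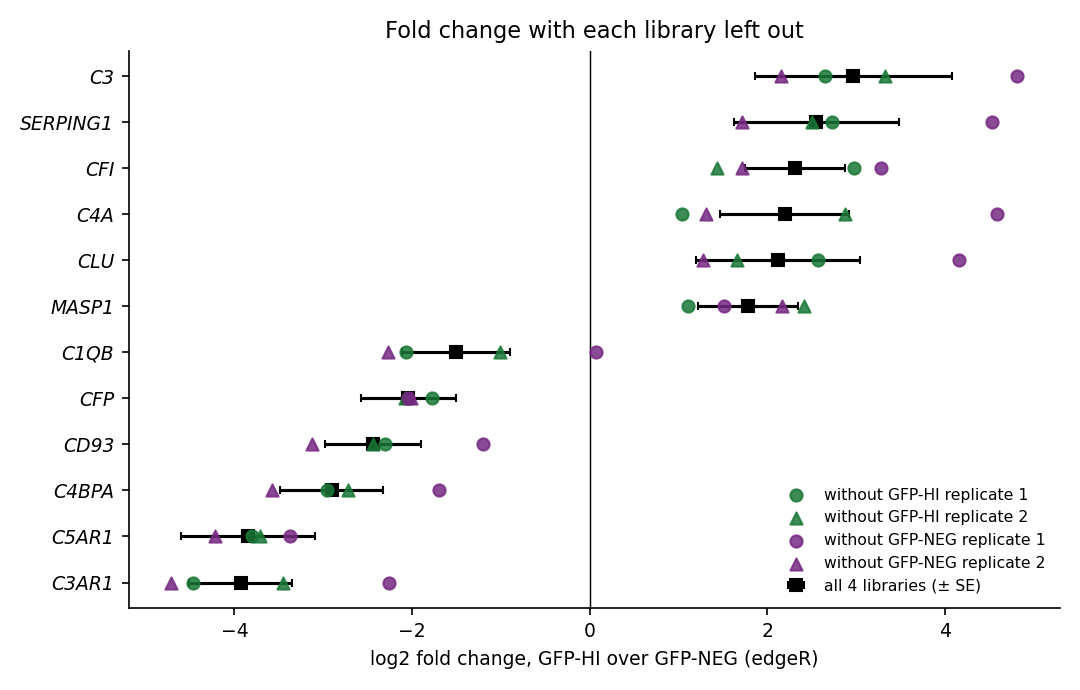
Log2 fold change (edgeR) of the 11 called complement genes and CLU with all 4 libraries (black squares, SE) and with each library left out (green GFP-HI, purple GFP-NEG, circles replicate 1, triangles replicate 2). Leaving out GFP-NEG replicate 1 moves C3 to 4.81, SERPING1 to 4.53 and C1QB to 0.065, while C5AR1 stays between -4.21 and -3.38.

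Genes of the pathway outside the 32 came from a list of 31, of which 24 had a row and 19 were tested. Of these, 4 rose and 7 fell, beside the 8.35% and 27.6% of all genes tested. COLEC12, a collectin scavenger receptor, rose by 2.78, PTX3, a pentraxin that binds C1q, by 2.52, CSMD1, a membrane regulator of complement, by 3.72 and FCN2, a ficolin that carries MASP proteases, by 1.58 on the log2 scale (edgeR adjusted p of 1.4e-04, 1.3e-04, 0.019 and 0.0100). FCN2 was at 44.2 and 75.4 CPM in GFP-HI and at 30.9 and 9.21 CPM in GFP-NEG, and its call was lost under DESeq2 (adjusted p of 0.053), scaling by library size alone (0.058) and without GFP-HI replicate 2 (0.21, at 1.20) or GFP-NEG replicate 2 (0.58, at 0.91), within 0.0047 to 0.58 over the 12 alternatives. CSMD1 had 159 and 23 counts in the GFP-HI libraries, against 1 and 4 in GFP-NEG, and its call was lost under upper-quartile and library-size scaling (0.072 and 0.087) and without GFP-NEG replicate 1 (0.085), within 0.019 to 0.087 over the 9 alternatives that tested it. Without GFP-NEG replicate 2, COLEC12 (0.18, at 1.98) and PTX3 (0.075, at 2.07) were not past the threshold either, the highest adjusted p-values of these genes over the 12. Without GFP-NEG replicate 1 the difference was 4.53 for COLEC12 and 2.75 for FCN2.

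The second C5a receptor gene, C5AR2, fell by 4.67 (adjusted p of 8.4e-12, edgeR). Its GFP-HI counts of 99 and 50 stood against 802 and 491 in GFP-NEG, in the direction of C5AR1. ITGAM and ITGB2, the chains of complement receptor 3 on leukocytes, fell by 3.88 and 3.31 (adjusted p of 1.5e-07 and 5.1e-05). The liver-derived CRP, APCS and CPN2 fell too, from low levels: CRP had 10 and 5 counts in the GFP-HI libraries, against 24 and 85 in GFP-NEG, APCS 0 and 0 against 14 and 45, and CPN2 0 and 1 against 13 and 43. CRP was not past the threshold without GFP-HI replicate 2 (0.051) or GFP-NEG replicate 2 (0.14; 6.1e-04 to 0.14 over the 12), nor CPN2 without GFP-HI replicate 1 (0.050; 4.7e-04 to 0.050 over the 11 that tested it). At such low counts the wider detection in GFP-NEG, 24120 and 25985 genes with a count, stands beside these falls, and its part was not tested. The mean of APCS in GFP-NEG was at least 23.9-fold higher than the floor of 3 counts in a GFP-HI library. VSIG4, the C3b receptor of tissue macrophages, did not pass the threshold (log2 fold change -0.77), and neither did THBD (-0.85), CALR (0.49), C1QBP (0.05) or A2M (-1.02). With single libraries left out VSIG4 ranged from -1.56 to 0.88, THBD from -1.54 to -0.26, CALR from 0.26 to 0.75, C1QBP from -0.30 to 0.53 and A2M from -2.0 to 2.52. A2M, VSIG4 and CALR reached their highest values without GFP-NEG replicate 1, THBD and C1QBP without GFP-HI replicate 2.

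The authors' deposited table lists the same 22 genes that were tested here. By an adjusted p under 0.05 in the authors' deposited table, 6 of them were higher and 5 lower in GFP-positive cells, and 20 of the 22 had the same call as in the edgeR fit. The exceptions were C1QB, not called in the authors' deposited table (adjusted p of 0.083), and CLU, called higher there (adjusted p of 0.016). The deposited values of these genes matched those of the DESeq2 alternative run here on the same counts. For C3 both gave a log2 fold change of 2.97. The deposited table is therefore not a separate result from that alternative, and the exceptions repeat it.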

How the data were processed

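RNA sequencing libraries of sorted lung cells (2 GFP-HI, 2 GFP-NEG) were analysed from the authors' deposited tables of raw counts per gene. featureCounts, Subread 1.5.2 and DESeq2 1.37.6 are named in the submitters' processing notes; aligner, build, strand setting and filters are not given in the sources used here, so genes that overlap or have close copies are uncertain. No row lacked a gene name (0 left out). Per the file headers, a deposited comparison table of 16250 genes also holds these counts (0 values differ), a log2 fold change and an adjusted p-value; its 4 other columns of values per sample were not used. Of the Ensembl identifiers, 834 were given symbols from the gene name table.

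The deposited counts were tested in R 4.3.3 with edgeR 4.0.16 (glmQLFTest), TMM scaling, filterByExpr and group as the only term. It kept 19682 genes, and Benjamini-Hochberg adjustment ran over all of them. CPM was computed here from counts and TMM factors. The standard error is the log2 fold change divided by the square root of F, and 95% intervals use it with a normal approximation, since the spread was moderated fully toward the trend (common dispersion 0.239). The procedure was also run on simulated counts with the same dispersion for all genes. Those counts lack the gap between the GFP-NEG libraries, so that run cannot show how far calls that depend on the gap hold. Replicates are labelled biological, and the labels do not say that same-numbered libraries share a pig. Headings of the 4 unused columns number pigs, but some of those headings appear exchanged, so the libraries were treated as sharing a number only. Alternatives were RLE, upper-quartile and library-size scaling, 2 other filters, DESeq2 1.42.0, the replicate block, each library left out, and GFP-HI thinned to the GFP-NEG depth.

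The complement genes, the other lists and the tests were chosen with earlier results of these data known. Named were all complement genes of the list with their counts or CPM, each called gene of the further pathway list, and marker lists by sums and counts of calls; other pathway genes that did not pass were added after their values were seen. Intervals cover counting error and a replicate spread taken from the trend over all genes, not from the replicates of each gene. Floors cover counting error only. Sequences of these genes were not used here.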

Additional observations from a re-analysis of the deposited data

How the results depend on the processing

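The counts of complement genes, 5 higher and 6 lower, stayed within 1.5 times under the 8 alternatives that used all libraries. The number lower includes C8B, with no value in the main filter, under no filter, under DESeq2 and without GFP-NEG replicate 1. With single libraries left out, where the lone library of a group is assumed to vary like the other group, the number higher ranged from 0 to 5 and the number lower from 3 to 6. Over all genes, 1643 were higher and 5433 lower. The number higher was 1083 under upper-quartile scaling and 888 under library size alone, where higher genes made up a smaller share of calls, and the number lower was 3599 with GFP-HI thinned to the GFP-NEG depth. With single libraries left out these ranged from 216 to 1635 higher and from 1575 to 4999 lower. The median log2 fold change of all genes tested was -0.25, and -0.58 under upper-quartile scaling and -0.68 under library size alone; for the complement genes it was -0.73, -0.98 and -1.06. Under 4 other alternatives the complement median lay above that of all genes: no filter (-0.69 against -1.21), DESeq2 (-0.73 against -1.30), without GFP-HI replicate 2 (-0.22 against -0.47) and without GFP-NEG replicate 1 (0.48 against -0.43). In these the median of all genes included genes outside the main filter, while the complement median did not.

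Deviations of same-numbered libraries from their group means correlated at 0.160 over genes, and whether the numbers mark a pairing is not settled. Adding that number to the model (replicate block) gave 6 complement genes higher and 5 lower, and 1707 and 4793 over all genes; besides C1QB (not past the threshold, adjusted p of 0.12), CLU (past it, 0.020, at 2.64) and CSMD1 (not past it, 0.072) it changed no call of a tested complement gene or further called pathway gene. Of the 22 tested complement genes, values that turned sign were those of C1QA (-1.91 to 0.47 with single libraries left out), C1QB (-2.27 to 0.065), C1QC (-1.69 to 0.95), CFB (-1.02 to 0.011) and C7 (-0.77 to 1.51, with 0.023 under no filter on low counts and 0.36 under the replicate block). In each of these the positive value arose without GFP-NEG replicate 1, and for C7 also without GFP-HI replicate 1. Of the further pathway genes tested, A2M (-2.0 to 2.52), VSIG4 (-1.56 to 0.88), F2 (-0.66 to 1.46) and C1QBP (-0.30 to 0.53) turned sign with single libraries left out; the cause was not tested. One count in GFP-NEG is worth 0.155 and 0.110 CPM, which limits C5, C6, C8A, C8B, C9, MASP2 and VTN.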
